A study of Mus musculus with 6 samples.

Results

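The genes described here are 7 markers of cholangiocytes, the epithelial cells that line the bile ducts: Krt19, Krt7, Epcam, Sox9, Spp1, Cftr and Pkhd1. They were chosen by name as bile duct epithelial markers, and all 7 were found among the 55367 gene names of the count table. The study sequenced RNA of whole liver from mice of the C57BL/6J strain, 3 libraries labelled Lmln-/- (here Lmln-KO) and 3 labelled wild type (WT). Lmln encodes invadolysin, a metalloprotease. The labels do not describe the disrupted allele, give no sex and name no treatment. The mice were 46 weeks old, except that the mouse of Lmln-KO replicate 3 was 39 weeks old. Replicates are numbered in the labels, which do not state that each came from its own animal, so p-values measure the spread between these libraries.

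Cholangiocytes are a small minority of liver cells next to the hepatocytes. They modify bile by secreting chloride, bicarbonate and water, and each carries a primary cilium that senses flow. They arise from the same embryonic progenitors as hepatocytes, under the influence of Notch signalling and the transcription factors ONECUT1 and SOX9. After injury, cells with duct markers can multiply in what is called a ductular reaction, and some hepatocytes near the portal tract then switch on genes such as Sox9 and Spp1.

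Total counts per library ran from 17388360 to 22494696, the Lmln-KO libraries being the deeper ones. Lmln itself was counted 4, 12 and 2 times in the Lmln-KO libraries (replicates 1 to 3) and 79, 80 and 39 times in the WT libraries. Sex-chromosome transcripts divided the libraries: Xist stood at 1878 to 1947 CPM (counts normalized to library size) in Lmln-KO replicate 3 and WT replicates 2 and 3, and 4 Y-linked genes summed to 216 to 235 CPM in the remaining libraries, which are Lmln-KO replicates 1 and 2 with WT replicate 1. A second fit used an added covariate that separates these sets (the sex-marker term). Its values are given for the members and for other genes whose fold change is printed where it moved that value by over 1.5 times or changed its sign or the side of an unadjusted p of 0.05. Library sizes in CPM were scaled by edgeR's TMM method.

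No difference between the genotypes beyond the spread of the libraries was found for the 6 tested markers, and Cftr had too few counts to be tested. Of the 6 members with enough counts to be tested, 3 had a positive and 3 a negative log2 fold change of Lmln-KO over WT, from -0.35 for Krt7 to 0.42 for Sox9, with a median of -0.02. The median over all 18703 tested genes was -0.0038. At a Benjamini-Hochberg adjusted p of 0.05, edgeR's quasi-likelihood test called 0 of the 6 and 0% of all tested genes, and 0 of the 6 had an unadjusted p under 0.05, against 4.66% of all genes. DESeq2 called 0 of the 6 and 0.128% of all genes. With the sex-marker term edgeR again called 0 of the 6, against 0.00535% of all genes, and DESeq2 0 of the 6, against 0.166%. For the interaction of genotype with the sex-marker set, 0 of the 6 passed in edgeR and 0 had an unadjusted p under 0.05, against 0% and 2.43% of all tested genes. The log2 fold changes with the sex-marker term were 0.29 for Krt19, -0.44 for Krt7, -0.40 for Epcam, 0.04 for Sox9, 0.11 for Spp1 and -0.11 for Pkhd1. In none of the 6 were the groups free of overlap, which was the case for 10.3% of all tested genes. In whole tissue, fewer cells of a type and less RNA per cell cannot be told apart.

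**Figure D1:**
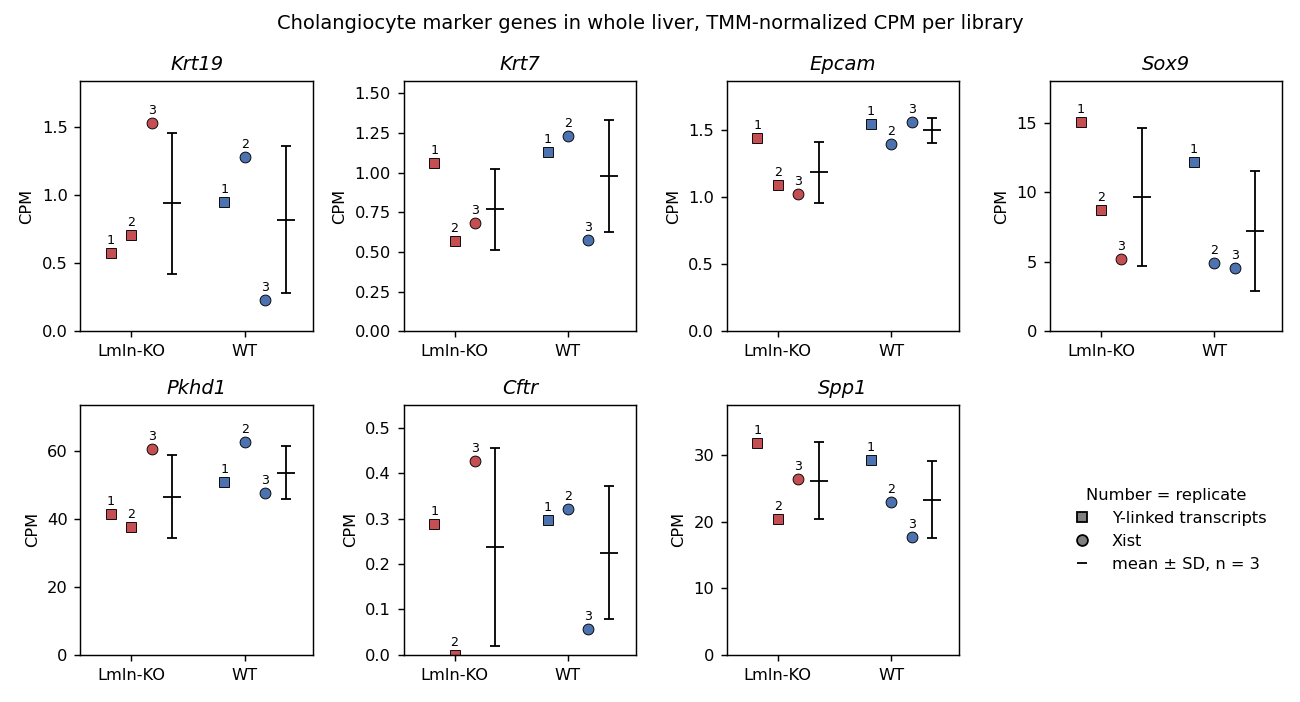
TMM-normalized CPM of each marker (vertical axis, from 0) in the 3 Lmln-KO and 3 WT libraries; squares are libraries with Y-linked transcripts, circles those with Xist, numbers the replicates, and the bar beside each group its mean ± SD (n = 3). The groups overlap for every marker, and the 3 squares of Sox9, at 8.69 to 15.0 CPM, lie above its 3 circles, at 4.55 to 5.20 CPM.

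The members spanned a wide range of levels, which can be compared between genes only per length of exon. Spp1 was highest, at 15.0 ± 3.27 CPM per kb (SD over all 6 libraries), followed by Pkhd1 at 3.51 ± 0.699 and Sox9 at 2.04 ± 1.06 CPM per kb. Epcam at 0.611 ± 0.105, Krt19 at 0.475 ± 0.257 and Krt7 at 0.124 ± 0.0423 CPM per kb came next, and Cftr was lowest at 0.0298 ± 0.0213. The average level of Spp1 was thus 503 times that of Cftr. Among neighbours in this order, the ranges over the libraries did not overlap between Spp1 and Pkhd1, between Sox9 and Epcam, or between Krt7 and Cftr. Krt19 exceeded Krt7 per kb in all 6 libraries although their ranges overlapped. This order rests on exon lengths of 1.855 kb for Krt19 and 7.049 kb for Krt7. Without that scaling their averages were 0.881 and 0.873 CPM. Exon length here sums all annotated exons of a gene, which may exceed the length of the transcripts present. Pkhd1 exceeded Sox9 in 5 of 6 libraries, and Epcam exceeded Krt19 in 4 of 6, so the order within these pairs was not the same in every library.

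**Figure D2:**
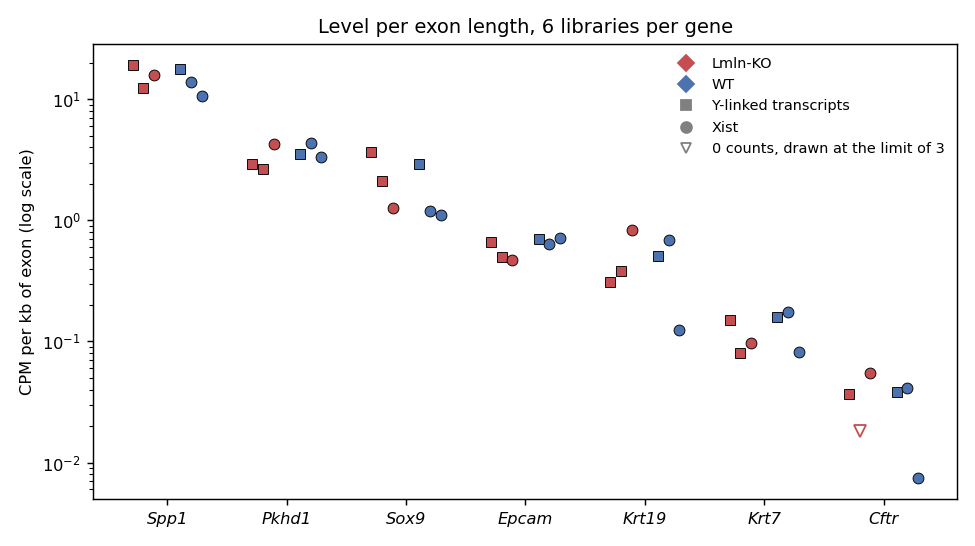
CPM per kb of exon on a log axis for the 7 markers in order of their average, with 6 libraries each (red Lmln-KO, blue WT; squares with Y-linked transcripts, circles with Xist). The open triangle is Cftr in Lmln-KO replicate 2, which had 0 counts and is drawn at the limit of 3 counts; Spp1 averages 15.0 and Cftr 0.0298 CPM per kb.

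The keratins of the duct cell cytoskeleton were detected at low counts. Krt19 (chromosome 11, 100140810 to 100148665, minus strand, GRCm38) encodes a type I keratin that hepatocytes lack. Its level was 0.577, 0.709 and 1.54 CPM in Lmln-KO replicates 1, 2 and 3 and 0.950, 1.28 and 0.230 CPM in WT replicates 1, 2 and 3. Lmln-KO replicate 3 was highest and WT replicate 3 lowest, and the highest was 6.66 times the lowest, the widest span among the 6 members with counts in every library. The 4 counts of WT replicate 3 allow 0.0628 to 0.590 CPM (exact 95% Poisson interval), which does not reach the interval of Lmln-KO replicate 3, 1.08 to 2.13 CPM from 36 counts. These intervals cover counting error only and are too narrow where both reads of a pair were counted. The log2 fold change was 0.20 (SE 0.618, 95% interval -1.23 to 1.62, edgeR adjusted p 0.975), and it changed sign without Lmln-KO replicate 3 (-0.35) or WT replicate 3 (-0.24).

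Krt7 (chromosome 15, 101411043 to 101430313, plus strand) encodes the type II keratin of duct cells. It measured 1.06, 0.567 and 0.682 CPM in Lmln-KO replicates 1, 2 and 3 and 1.13, 1.23 and 0.576 CPM in WT replicates 1, 2 and 3. The low libraries were Lmln-KO replicates 2 and 3 and WT replicate 3, so each group held a high and a low value. The log2 fold change was -0.35 (SE 0.426, 95% interval -1.33 to 0.63, edgeR adjusted p 0.936). Leaving out Lmln-KO replicate 1 gave -0.64, and leaving out WT replicate 2 gave -0.15.

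Krt8 and Krt18, the type II and type I keratins that hepatocytes also make, were far more abundant and had their own pattern. Krt8 measured 71.2, 68.0 and 45.2 CPM in Lmln-KO replicates 1, 2 and 3 and 76.0, 41.1 and 53.2 CPM in WT replicates 1, 2 and 3, with a log2 fold change of 0.11 (SE 0.265), which was -0.09 with the sex-marker term. All 3 libraries with Y-linked transcripts lay above all 3 with Xist, which held in that direction for 13.3% of tested genes. Krt18 was arranged in the same way, from 94.9 to 144 CPM against 74.1 to 94.7 CPM. Krt23, a keratin inducible in liver, was at 7.72 CPM in WT replicate 3 and at 0.336 to 1.23 CPM in the other libraries, with a log2 fold change of -2.05 by genotype alone and -1.27 with the sex-marker term. Krt20 had counts in WT replicate 3 alone, at 0.115 CPM. Of the 4 keratin partners 3 were tested and 0 were called.

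Epcam (chromosome 17, 87635979 to 87651129, plus strand) encodes a homophilic adhesion molecule used to isolate duct cells. Its level was the steadiest of the members, at 1.44, 1.09 and 1.02 CPM in Lmln-KO replicates 1, 2 and 3 and 1.54, 1.39 and 1.55 CPM in WT replicates 1, 2 and 3. Lmln-KO replicates 2 and 3 lay below every WT library, while Lmln-KO replicate 1 lay within the WT range. The log2 fold change was -0.34 (SE 0.282, 95% interval -0.99 to 0.31, edgeR adjusted p 0.933). Each of these values rests on 23 to 30 counts.

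Other epithelial surface genes gave 0 calls among 6 tested of 9, with 1 positive and 5 negative log2 fold changes and a median of -0.20. Cldn3, a tight junction claudin, was even across the libraries at 58.3 to 70.6 CPM. Prom1, which encodes the progenitor surface protein CD133, measured 1.25, 1.46 and 8.78 CPM in Lmln-KO replicates 1, 2 and 3 and 1.07, 14.3 and 27.0 CPM in WT replicates 1, 2 and 3. The 3 libraries with Xist were the high ones in both genotypes, and 26.3% of all tested genes had no overlap between these sets in either direction. The log2 fold change of Prom1 was -1.87 (SE 1.38, edgeR adjusted p 0.933) by genotype alone and -0.74 with the sex-marker term. Cd24a and Muc1, surface glycoproteins, had log2 fold changes of -0.36 and -0.34 with unadjusted p-values of 0.28 and 0.516 in edgeR.

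Sox9 (chromosome 11, 112782224 to 112787760, plus strand), the transcription factor of duct fate, separated the libraries by their sex-chromosome transcripts and not by genotype. It measured 15.0, 8.69 and 5.20 CPM in Lmln-KO replicates 1, 2 and 3 and 12.2, 4.92 and 4.55 CPM in WT replicates 1, 2 and 3. The libraries with Y-linked transcripts were at 8.69 to 15.0 CPM and those with Xist at 4.55 to 5.20 CPM. Sox9 was the only one of the 7 members without overlap between these sets, and 26.3% of all tested genes had none in either direction. By genotype alone its log2 fold change was 0.42 (SE 0.541, 95% interval -0.91 to 1.75, edgeR adjusted p 0.937). With the sex-marker term it was 0.04 (SE 0.224, 95% interval -0.47 to 0.55, adjusted p 0.997), and in log2 CPM Lmln-KO minus WT came to -0.09 among libraries with Y-linked transcripts and to 0.13 among the Xist libraries. The fold change by genotype alone was 1.03 without WT replicate 1 and -0.05 without Lmln-KO replicate 1. The set with Xist includes the library of the 39-week-old mouse, and the set with Y-linked transcripts does not.

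**Figure D3:**
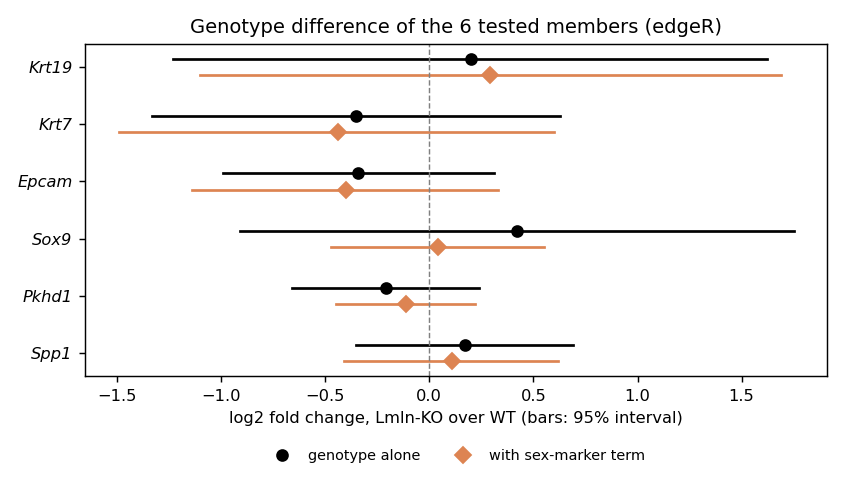
Log2 fold change of Lmln-KO over WT (horizontal axis) with its 95% interval for the 6 tested markers, from edgeR by genotype alone (black) and with the sex-marker term (orange). Every interval includes 0; that of Sox9 runs from -0.91 to 1.75 by genotype alone and from -0.47 to 0.55 with the term.

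Among 8 other transcription factors of the duct lineage or of duct-type epithelia, 7 were tested and 0 were called, with 5 positive and 2 negative fold changes. Onecut1, also known as HNF6, was at 137 CPM in Lmln-KO replicate 2 and at 4.45 to 16.2 CPM in the other 5 libraries. Its log2 fold change of 2.45 (SE 1.28) thus turned on that library and did not pass in edgeR (adjusted p 0.933). Onecut2, a related factor, averaged 383 ± 25.7 CPM among Lmln-KO libraries against 316 ± 81.9 CPM among WT libraries (SD, n = 3), and Sox4 had a log2 fold change of -0.23.

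Notch pathway genes, which act upstream of Sox9 in the duct lineage, gave 0 calls among 10 tested of 12. Of these, 2 had an unadjusted p under 0.05 in edgeR, against 4.66% of all tested genes. Hes1, a direct Notch target, measured 10.8, 9.97 and 7.55 CPM in Lmln-KO replicates 1, 2 and 3 and 7.66, 5.46 and 7.08 CPM in WT replicates 1, 2 and 3, with a log2 fold change of 0.48 (SE 0.198, unadjusted p 0.04, adjusted p 0.933 in edgeR). Hes1 also separated the libraries by sex-chromosome transcripts, at 7.66 to 10.8 CPM with Y-linked transcripts and 5.46 to 7.55 CPM with Xist. The same held for 26.3% of all tested genes, counting either direction. With the sex-marker term the log2 fold change of Hes1 was 0.35 (unadjusted p 0.0677 in edgeR). Dll4, a Notch ligand of endothelium, had the opposite sign, at 6.05, 5.86 and 7.59 CPM in Lmln-KO replicates 1, 2 and 3 against 10.3, 7.97 and 14.3 CPM in the WT replicates. Its groups did not overlap, as was the case for 10.3% of all tested genes. The log2 fold change of Dll4 was -0.74 (SE 0.232, unadjusted p 0.0125, adjusted p 0.933 in edgeR). Hey1, another target, also had a log2 fold change of -0.74, on 0.331 to 1.25 CPM. The RefSeq promoter table of build GRCm38.p6 (250 bases before to 50 after a start site) held 5 of the 7 markers, without Krt19 and Sox9. On both strands, the letters TGGGAA of the Notch effector RBPJ and ACAAT of SOX factors were in none of these 5 genes' promoters, against 25.6% and 31% of the 32851 promoters in the table. This describes the letters in the window and not binding.

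Pkhd1 (chromosome 1, 20057779 to 20618064, minus strand), mutated in autosomal recessive polycystic kidney and liver disease, encodes fibrocystin, a protein of the primary cilium. It had the most counts of the members, 801 to 1421 per library, over 14310 bases of exon. Its level was 41.5, 37.8 and 60.6 CPM in Lmln-KO replicates 1, 2 and 3 and 50.9, 62.7 and 47.7 CPM in WT replicates 1, 2 and 3. Lmln-KO replicates 1 and 2 lay below every WT library, and Lmln-KO replicate 3 near the top of the WT range. The log2 fold change was -0.21 (SE 0.194, 95% interval -0.66 to 0.24, edgeR adjusted p 0.933). It was -0.43 without Lmln-KO replicate 3 and -0.07 without Lmln-KO replicate 2. The exons of Pkhd1 share 208 bases with 4930486I03Rik on the other strand, which had 29 counts over all libraries.

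Of 14 further genes of the primary cilium and of polycystic liver disease all were tested and 0 were called, with 6 positive and 8 negative fold changes between -0.32 and 0.21. Pkd1 and Pkd2, which encode the polycystins of the cilium, were steady, at 85.5 to 92.9 CPM and 35.8 to 40.9 CPM over the 6 libraries. Sec63 and Prkcsh, genes of dominant polycystic liver disease that act in the endoplasmic reticulum, differed by 0.20 (SE 0.159) and 0.08 (SE 0.104) on the log2 scale, and by 0.08 and 0.04 with the sex-marker term. Dzip1l, which encodes a ciliary transition zone protein, had one of -0.32 (SE 0.285).

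Cftr (chromosome 6, 18170687 to 18322768, plus strand), the chloride channel of the duct cell's apical membrane, was at the limit of detection. It was counted 6, 0 and 10 times in the Lmln-KO libraries (replicates 1 to 3) and 5, 6 and 1 times in the WT libraries. In CPM these were 0.288, 0 and 0.426 against 0.297, 0.321 and 0.0576, so either group held values near 0 and values above 0.28. The 0 counts of Lmln-KO replicate 2 allow a level of up to 0.142 CPM, taking 3 counts as the limit, or 0.174 CPM as the upper bound of the exact 95% Poisson interval, for counting error only. Cftr did not pass the filter on low counts and was not tested. Its exons share 129 bases with Gm15592 on the other strand, which had 2 counts in Lmln-KO replicate 1 and 4 in WT replicate 2. How reads in the shared bases were assigned was not checked, so the overlap may affect the Cftr counts.

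The other genes of ductal secretion gave 0 calls among 10 tested of 13, with 8 positive and 2 negative fold changes. Sctr, the secretin receptor through which the hormone opens CFTR, was at 0 to 0.192 CPM, and Gpbar1, a bile acid receptor of the duct, at 0 to 0.288 CPM. Slc4a2, the chloride and bicarbonate exchanger, averaged 38.5 ± 1.81 CPM among Lmln-KO libraries against 33.8 ± 3.32 CPM among WT libraries (SD, n = 3), for a log2 fold change of 0.19 (SE 0.105, unadjusted p 0.114). Adcy6, an adenylyl cyclase, and Aqp1, a water channel, differed by 0.26 (SE 0.161) and 0.16 (SE 0.128) on the log2 scale. Adcy6 differed by 0.17 with the sex-marker term.

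Spp1 (chromosome 5, 104435118 to 104441050, plus strand) encodes osteopontin, a secreted glycoprotein that binds integrins and CD44 and is made in liver by duct cells and by some macrophages. Its level was 31.8, 20.3 and 26.3 CPM in Lmln-KO replicates 1, 2 and 3 and 29.2, 23.0 and 17.6 CPM in WT replicates 1, 2 and 3. Replicate 1 of either genotype was high, and the groups overlapped over most of their range. The log2 fold change was 0.17 (SE 0.222, 95% interval -0.35 to 0.69, edgeR adjusted p 0.937), and it was 0.37 without WT replicate 1 and 0.005 without WT replicate 3. Spp1 shares 309 exon bases with Gm42793 on the same strand, which had 14 counts over all libraries.

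Markers of lipid-associated macrophages, another source of Spp1, had 6 of 7 fold changes below 0 and a median of -0.71, with 0 calls in edgeR. Unadjusted p-values under 0.05 and groups without overlap were found for 2 of the 7, Gpnmb and Itgax, against 4.66% and 10.3% of all tested genes. Their summed level ran from 24.6 to 39.4 CPM over the Lmln-KO libraries and from 32.0 to 60.1 CPM over the WT libraries, and none was at 0 in every library. Gpnmb, a transmembrane glycoprotein of these cells, averaged 0.207 ± 0.155 CPM among Lmln-KO libraries against 1.37 ± 1.35 CPM among WT libraries (SD, n = 3), for a log2 fold change of -2.66 (SE 0.84, adjusted p 0.933 in edgeR). Its counts were 2, 3 and 9 in Lmln-KO replicates 1, 2 and 3 and 10, 11 and 51 in the WT replicates. WT replicate 3, at 2.94 CPM, was far above WT replicates 1 and 2, at 0.594 and 0.588 CPM. For Itgax the log2 fold change was -1.12 (SE 0.376), and for Trem2 -0.72 (SE 0.503), which was -0.46 with the sex-marker term. The part of these cells in the level of Spp1 was not tested.

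Receptors of osteopontin gave 0 calls among 8 tested. Of the 8, 1 had an unadjusted p under 0.05 in edgeR and 2 had groups without overlap, against 4.66% and 10.3% of all tested genes. Cd44 measured 14.3, 12.6 and 11.3 CPM in Lmln-KO replicates 1, 2 and 3 and 15.4, 20.2 and 22.3 CPM in WT replicates 1, 2 and 3. All Lmln-KO values were below all WT values, with a log2 fold change of -0.60 (SE 0.165, unadjusted p 0.00639). The adjusted p was 0.933 in edgeR and 0.555 in DESeq2. In log2 CPM, Lmln-KO minus WT came to -0.20 among libraries with Y-linked transcripts and to -0.91 among the Xist libraries. The first value rests on a single WT library. The second rests on a single Lmln-KO library, that of the 39-week-old mouse, so age and genotype cannot be told apart there. The integrin subunits Itga9 and Itga4 differed by -0.25 (SE 0.117) and -0.57 (SE 0.344) on the log2 scale. Both separated the libraries by sex-chromosome transcripts, Itga4 with 8.22 to 9.32 CPM against 14.8 to 19.6 CPM in the Xist libraries. Of all tested genes, 26.3% had no overlap between these sets. With the sex-marker term the differences were -0.17 for Itga9 and -0.25 for Itga4. Both are made by many cell types, as is Cd44.

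**Figure D4:**
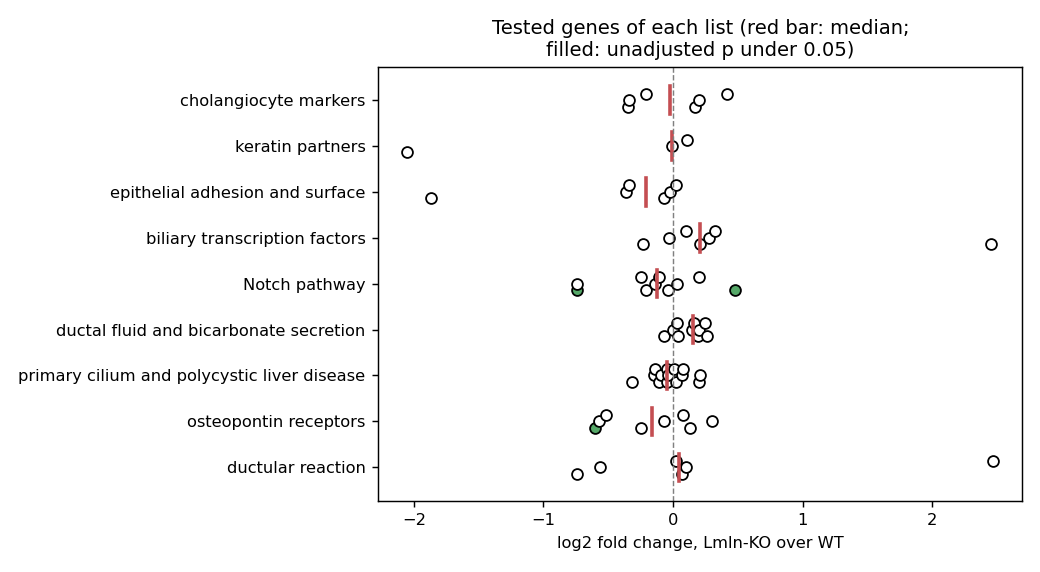
Log2 fold change of Lmln-KO over WT (horizontal axis) of every tested gene in the marker list and the 8 lists of related genes, 1 circle per gene; red bars are list medians and filled circles have an unadjusted p under 0.05. The 3 filled circles are Dll4 and Hes1 in the Notch row and Cd44 among the osteopontin receptors, and no gene passed after adjustment.

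Genes of the ductular reaction gave 0 calls among 6 tested of 8, with 4 positive and 2 negative fold changes. Lcn2, a secreted lipocalin that is also an acute phase gene, was at 99.4 CPM in Lmln-KO replicate 1 and at 1.89 to 9.41 CPM in the other 5 libraries, so its log2 fold change of 2.47 (SE 1.62) turned on that library. Mmp7, a protease of reactive ducts, was at 0 to 0.237 CPM. Vcam1, an adhesion molecule, averaged 13.2 ± 2.89 CPM among Lmln-KO libraries against 22.1 ± 11.1 CPM among WT libraries (SD, n = 3) with a log2 fold change of -0.74, and Ncam1, another, had one of -0.56. Vcam1 was at 10.99 to 12.11 CPM in the libraries with Y-linked transcripts and at 16.5 to 33.2 CPM in the Xist libraries. No overlap between these sets was found for 26.3% of all tested genes. With the sex-marker term the log2 fold change of Vcam1 was -0.35. With the same term that of Lcn2 was 1.63. Over all 8 lists, 64 of 76 genes were tested, 31 with a positive and 33 with a negative fold change. Of the 64, 3 (4.69%) had an unadjusted p under 0.05 and 4 (6.25%) had groups without overlap, against 4.66% and 10.3% of all tested genes.

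**Figure D5:**
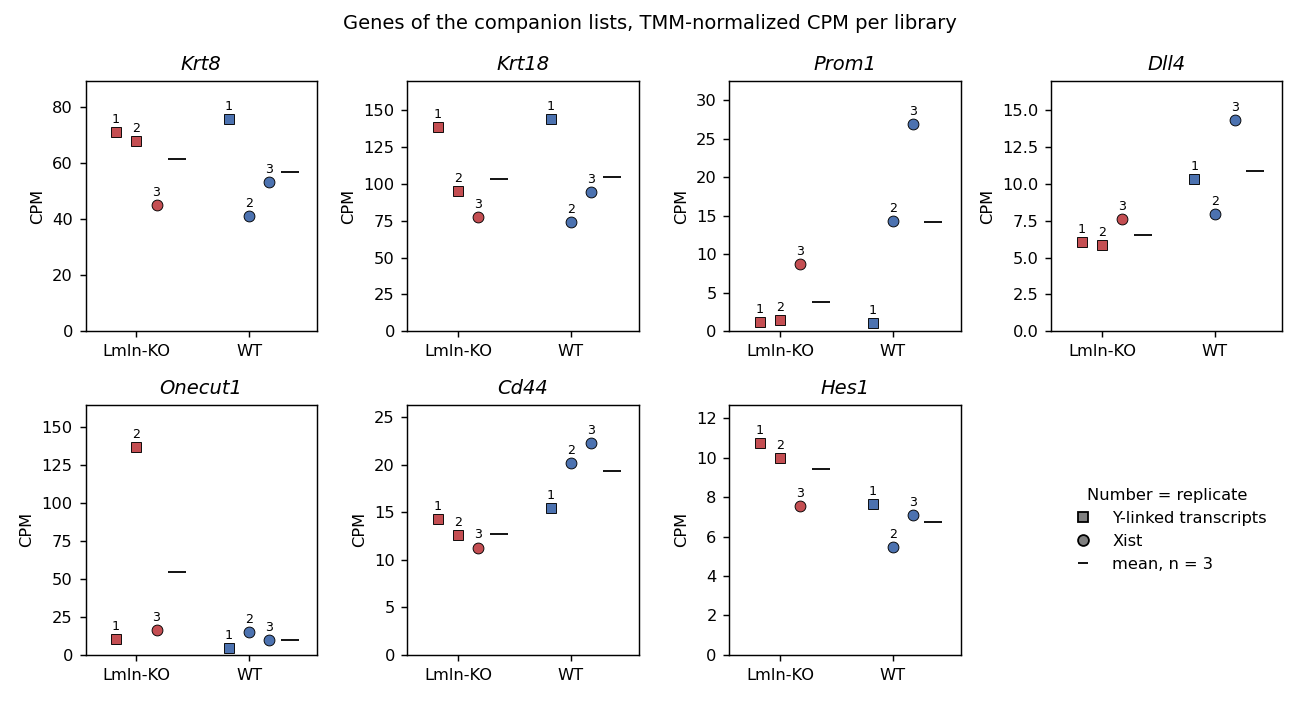
TMM-normalized CPM of 7 genes of the related lists (vertical axis, from 0) in the 3 Lmln-KO and 3 WT libraries, drawn as for the markers, with horizontal bars at the group means. Krt8, Krt18, Prom1 and Hes1 separate the squares (Y-linked transcripts) from the circles (Xist), as do 26.3% of all tested genes. Onecut1 is at 137 CPM in Lmln-KO replicate 2 alone. Cd44 and Dll4 are lower in each Lmln-KO library than in any WT library, and 10.3% of all tested genes have groups without overlap.

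The 7 markers did not rise and fall together across the libraries. WT replicate 3 had the lowest level of 3 members (Krt19, Sox9 and Spp1) and the highest of Epcam. Lmln-KO replicate 2 had the lowest level of 3 others (Krt7, Cftr and Pkhd1), and Lmln-KO replicate 3 the highest of Krt19 and Cftr and the lowest of Epcam. Lmln-KO replicate 1 was highest in Sox9 and Spp1, and WT replicate 2 in Krt7 and Pkhd1. Ranks of Krt19, Krt7, Epcam and Cftr rest on at most 36 counts in a library. Some are near ties, such as Epcam at 1.555 CPM in WT replicate 3 and 1.544 CPM in WT replicate 1. On higher counts, Sox9 fell from 15.0 to 5.20 CPM between Lmln-KO replicates 1 and 3, where Pkhd1 rose from 41.5 to 60.6 CPM. The summed level of the 7 ran from 69.2 to 95.8 CPM over the Lmln-KO libraries and from 72.3 to 96.2 CPM over the WT libraries, most of it from Pkhd1 and Spp1.

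For each tested member, the genes with the most similar profile were sought among 11588 tested genes with an official symbol and an average log2 CPM of at least 1. Likeness was the root mean square difference of log2 CPM, each centred on its mean over the 6 libraries. Nearest to Krt19 was Esrrg, an orphan nuclear receptor, at 0.149 (Krt19 itself varied by 0.756 around its mean), followed by Adgrg2 at 0.244. Nearest to Sox9 was Nr0b2, the nuclear receptor SHP that represses bile acid synthesis, at 0.156, followed by Ccdc151 at 0.165, where Sox9 varied by 0.663. Nr0b2 measured 52.9, 28.0 and 20.8 CPM in Lmln-KO replicates 1, 2 and 3 and 48.4, 17.1 and 13.5 CPM in WT replicates 1, 2 and 3. Spp1 was closest to Pstpip2 (0.0881) and Ranbp6 (0.0914), Pkhd1 to Palm (0.0657) and Sned1 (0.0691), and Krt7 to Pkdrej (0.155) and Mrc2 (0.192). Ccdc28b was among the genes nearest to Epcam (0.056). These likenesses describe 6 libraries and were not tested.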

How the data were processed

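RNA of whole liver was sequenced in 3 Lmln-KO and 3 WT libraries from 50 ng of RNA after ribosomal RNA depletion, with 36-base paired reads from a directional kit (labels' protocols). Raw read counts per gene name were deposited. Per the file headers the authors made these counts with featureCounts 2.0.1 over exons of Ensembl release 102 (GRCm38), with no option for pairs or strand, so mates were counted separately and reads of antisense genes cannot be told apart. Subread 2.0.2 and edgeR 3.36.0 are named in the submitters' processing notes. Aligner and settings were not given in the sources used here.

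Counts were fitted over all 18703 genes passing filterByExpr (minimum count 10), with TMM and a robust quasi-likelihood fit on genotype in edgeR 4.0.16 (R 4.3.3) and Benjamini-Hochberg adjustment at 0.05. Cftr did not pass the filter. Standard errors were derived from each fold change and its F statistic (|log2 fold change| over the root of F), and the 95% intervals use the fit's t quantile. Differences within a set of libraries use a prior count of 2. DESeq2 1.42.0, other scalings and filters, the replicate number, the sex-marker term (Xist above or below the summed Kdm5d, Ddx3y, Uty and Eif2s3y) and leaving out each library were alternatives. Fitting steps were tested on simulated counts. Within a group, any pair of libraries differed beyond sampling noise (chi-square over its degrees of freedom at least 31).

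The members and the lists (8 of related genes, 10 of other cell types) were chosen with earlier results of these data known. Named are the members, up to 3 genes of each related list with the smallest p, and 2 genes of most similar profile per member; other genes were named after their values were seen. Some items that these rules name are not reported here.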

Additional observations from a re-analysis of the deposited data

Results flagged for a closer look

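Krt19 moved in opposite directions with genotype in the 2 sets of libraries that carry different sex-chromosome transcripts. Among libraries with Y-linked transcripts both Lmln-KO values lay below the WT value, a difference of -0.51 in log2 CPM, and among the Xist libraries the Lmln-KO value lay above both WT values, a difference of 1.27. The Lmln-KO library of the Xist set is replicate 3, from the 39-week-old mouse. Age and genotype therefore cannot be told apart in that set. The interaction of genotype and sex-marker set did not pass in edgeR (difference of -1.56 on the log2 scale, unadjusted p 0.232, adjusted p 1.0), and in either set 1 of the genotypes is a single library. Mean differences also had opposite signs for Pkhd1 (-0.36 with Y-linked transcripts and 0.15 with Xist, interaction p 0.113 unadjusted in edgeR), Spp1 (-0.20 and 0.39, p 0.244) and Sox9 (-0.09 and 0.13, p 0.733), where single libraries of a set did not all move the same way.

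Cftr was arranged in the same way on 0 to 10 counts per library: the mean CPM of Lmln-KO minus WT came to -0.153 among libraries with Y-linked transcripts and to 0.237 among the Xist libraries. This difference between the sets was not tested, since Cftr did not pass the filter. In the Xist set the Lmln-KO library is again that of the 39-week-old mouse.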

How the results depend on the processing

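No member was called under any of the 14 alternatives (lowest adjusted p 0.552, for Sox9 without WT replicate 1); Cftr had a value only without the filter on low counts, and Krt19 had none under the filter of at least 1 CPM in 3 libraries. None of 47 fold changes under other settings than leaving out a library changed sign, and 3 of 36 did when a library was left out: Krt19 to -0.35 without Lmln-KO replicate 3 and to -0.24 without WT replicate 3, and Sox9 to -0.05 without Lmln-KO replicate 1. Leaving out a library moved Krt19 between -0.35 and 0.68, Sox9 between -0.05 and 1.03, Spp1 between 0.005 and 0.37, Krt7 between -0.64 and -0.15, Epcam between -0.50 and -0.23 and Pkhd1 between -0.43 and -0.07. Over all genes the count of calls was 0 in the fit by genotype, 24 with DESeq2, 3 without a filter on low counts, 1 with the sex-marker term (31 in DESeq2), and 0 to 3 when a library was left out (3 without WT replicate 1). With the replicate number as a block it was 1 (Ppp1r3g). Pairing of the libraries by number was not shown. The correlation of deviations from the group means between same-numbered libraries was 0.465, -0.311 and 0.405, and Lmln-KO replicate 2 correlated best with WT replicate 1. All such correlations were positive within the sex-marker sets and negative between them, so they cannot decide on pairing. Depth limits Krt19, Krt7, Epcam and Cftr, which had at most 36 counts in a library.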

Other observations

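Of 7 pancreas genes 4 had no count in any library and the list summed to at most 0.297 CPM, and of 6 gallbladder genes 5 stayed below 1 CPM in every library while Cldn18 reached 1.01 CPM. Mesothelium, which also makes Krt19 and Krt7, gave 0 calls among 5 tested of 7, and its summed level was 2.73 to 7.49 CPM in Lmln-KO and 4.44 to 4.84 CPM in WT. Of its genes, Gpm6a averaged 1.27 CPM and Upk3b 0.758 CPM over the 6 libraries, near the level of Krt19 and Krt7, and the part of these cells in the keratin levels was not tested. Msln, Upk3b and Wt1 had log2 fold changes of -0.74, 0.51 and -0.33 by genotype alone and -1.43, 0.07 and -0.46 with the sex-marker term. Msln had 2 to 23 counts per library. Its unadjusted p in edgeR was 0.353 by genotype alone and 0.0253 with the term, where the adjusted p was 0.987.

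In edgeR 0 genes were called in any list of other liver cells. The median log2 fold change was -0.10 over 10 hepatocyte genes, -0.14 over 6 Kupffer cell genes, -0.28 over 8 stellate cell genes and -0.02 over 6 endothelial genes. Unadjusted p-values under 0.05 were found for Tat (0.0453) among the hepatocyte genes and Adgre1 (0.00184) among the Kupffer cell genes, both with lower means in Lmln-KO. Over all tested genes the share was 4.66%. With the sex-marker term the unadjusted p was 0.0882 for Tat and 0.000747 for Adgre1. None of the 7 T and NK cell genes and 1 of the 5 neutrophil genes, S100a9 (log2 fold change -0.09), had enough counts to be tested. The T and NK cell genes summed to 1.32 to 1.63 CPM over the Lmln-KO libraries. Over the WT libraries they summed to 1.90 to 5.47 CPM, without overlap. Each of Cd8a, Nkg7 and Klrb1c was lower in every Lmln-KO library than in any WT library, at 0 to 1.27 CPM. For Cd3e, Cd3g, Gzma and Ncr1 the groups overlapped. Among all tested genes 10.3% had groups without overlap, and each of these 7 genes had at most 22 counts in a library.

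Cdh1 and Slc10a2, named after their values were seen, shared a pattern over the libraries. Cdh1, which encodes E-cadherin, was at 12.4 and 13.1 CPM in Lmln-KO replicate 3 and WT replicate 2 and at 52.1 to 60.9 CPM in the other 4 libraries. Slc10a2, the bile acid uptake carrier of the duct cell's apical membrane, was at 11.8 and 15.1 CPM in the same pair of libraries and at 35.8 to 51.5 CPM in the others. WT replicate 3, which carries Xist as these 2 do, was at 58.0 CPM for Cdh1, within the range of the libraries with Y-linked transcripts. For Slc10a2 it was at 35.8 CPM, below the 39.6 to 51.5 CPM of those libraries. Slc10a2 thus had no overlap between the sets, as 26.3% of all tested genes did.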
